A study of Mus musculus with 4 samples.

Results

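The transcription factor genes Lef1, Tcf7, Satb1, Bach2, Foxp1, Foxo1 and Id3 were followed through the T cells that single-cell RNA sequencing found in mouse meninges and choroid plexus, in youth and with age. They were chosen as factors of T-cell quiescence and stemness, with earlier results of these data known, and make up 7 of the 31053 genes in the matrices. The study sorted CD4 and CD8 T cells by flow cytometry and made single-cell libraries with a 5′ kit, in which each captured molecule is counted as a unique molecular identifier (UMI). Each of the 4 libraries held cells pooled from 5 mice, and each tissue had 1 library at each age. The mice of the study were female C57BL/6, 10 weeks old when young and 18 months old when aged. No treatment is given in the labels for any library. Since the mice of a library were pooled and no condition had a second library, the spread between mice was not measured, and age cannot be told apart from the library that carried it. No p-value was therefore computed, and all intervals are 95% intervals that cover counting error only.

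Resting T cells that have not met antigen are kept small, long-lived and out of division by a set of transcription factors. LEF1 and TCF-1, the product of Tcf7, are DNA-binding partners of beta-catenin that guide T-cell development and later mark naive and stem-like memory cells. SATB1 organises chromatin, BACH2 represses effector genes, and the forkhead proteins FOXP1 and FOXO1 hold naive cells in quiescence and keep up homing and survival receptors. ID3 binds E proteins and blocks them from DNA. In naive cells these genes are read together with Ccr7, a chemokine receptor that leads cells to lymph nodes, and most of them fall when a T cell becomes an effector cell.

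On the GRCm38 build, Lef1 (ENSMUSG00000027985) lies at chr3:131110471-131224356 on the plus strand, and Tcf7 (ENSMUSG00000000782) at chr11:52252371-52283014 on the minus strand. Satb1 (ENSMUSG00000023927) lies at chr17:51736187-51833290 on the minus strand, and Bach2 (ENSMUSG00000040270) at chr4:32238804-32586108 on the plus strand. Foxp1 (ENSMUSG00000030067) lies at chr6:98925338-99522721 on the minus strand. Foxo1 (ENSMUSG00000044167) lies at chr3:52268336-52353221 on the plus strand, and Id3 (ENSMUSG00000007872) at chr4:136143497-136145755 on the plus strand. Lef1 and Foxo1 therefore share a chromosome, as do Bach2 and Id3. Id3 overlapped no other annotated gene, while the other 6 overlapped 2 to 6 each. The strand used in counting is not given in the sources used here, so reads from a partner on the other strand cannot be told apart.

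Of the 7 genes, Lef1 and Satb1 had the levels most like each other over 12 profiles, each a class of T cell in 1 library, so the 250 bases before their outermost RefSeq start (GRCm38.p6) are shown, 5′ to 3′ on the strand of the gene. The Lef1 window is chr3:131110047-131110296 and the Satb1 window is chr17:51833291-51833540. Neither overlaps an exon of its own gene in the GENCODE annotation, and each overlaps an exon of 1 predicted gene, Gm43352 and Gm6934. Capitals mark an E-box, CANNTG, the letters that E proteins bind.
Lef1: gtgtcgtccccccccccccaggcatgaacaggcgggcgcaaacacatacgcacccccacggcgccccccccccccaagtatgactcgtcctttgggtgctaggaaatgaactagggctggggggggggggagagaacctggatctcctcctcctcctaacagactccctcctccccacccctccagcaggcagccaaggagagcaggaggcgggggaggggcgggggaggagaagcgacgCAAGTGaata
Satb1: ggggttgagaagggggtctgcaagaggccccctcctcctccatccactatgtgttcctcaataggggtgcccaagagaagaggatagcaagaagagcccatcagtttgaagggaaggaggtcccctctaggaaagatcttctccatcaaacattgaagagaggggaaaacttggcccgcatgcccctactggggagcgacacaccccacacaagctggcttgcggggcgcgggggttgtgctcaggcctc
All 7 genes had a promoter entry. The Lef1 window holds 1 E-box and the Satb1 window none. Over both strands, an E-box was found in the windows of 4 of the 7 genes, Lef1, Tcf7, Foxp1 and Foxo1, and in 66.1% of 27025 promoter windows of the same length. The TCF/LEF letters CTTTGA were found for 1 of the 7, Bach2, and in 14.1% of all windows. The FOXO letters GTAAACA (3.06% of all windows) and the RUNX letters TGTGGT (14.2%) were found for none. Such matches are descriptions of letters in a window, and not all of these windows are clean promoters. Those of Foxp1, Foxo1 and Id3 overlap exons of their own genes, that of Tcf7 appears to run into coding sequence of the long isoform, and that of Bach2 lies 178631 bases inside the GENCODE gene.

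The matrices held 718 to 1695 barcodes and 2295950 to 4262917 UMIs per library. After filters on genes, mitochondrial UMIs and doublets, 1007 cells of young and 1408 of aged meninges, and 605 of young and 1094 of aged choroid plexus, carried RNA of the CD3 genes Cd3d, Cd3e or Cd3g and were taken as T cells. Their median depth was 3198 and 2312.5 UMIs in young and aged meninges and 2978 and 2838.5 UMIs in young and aged choroid plexus. Cells were called CD4 by Cd4 UMIs alone, CD8 by Cd8a or Cd8b1 UMIs alone, and neither where all 3 genes were at 0. Young meninges gave 254 CD4, 254 CD8 and 481 neither cells, and young choroid plexus 160, 160 and 269. Aged meninges gave 362, 281 and 735, and aged choroid plexus 230, 473 and 358. The 18, 16, 30 and 33 cells with UMIs of both kinds were left out. All 9 general T-cell marker genes were detected in each of these 12 profiles. The libraries shared at most 3 barcodes, and at most 1 barcode of T cells. Levels are UMIs summed over the cells of a profile and scaled by the total of that profile to CPM, so fewer cells with a gene and less of its RNA per cell cannot be told apart in them.

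Lef1 was lower in aged cells in all 3 classes and in both tissues. In CD4 cells its level was 439 CPM (396 to 485) in young meninges, 531 (469 to 600) in young choroid plexus, 71.1 (55.6 to 89.5) in aged meninges and 69.3 (51.4 to 91.3) in aged choroid plexus. In CD8 cells it was 371, 339, 81.8 and 66.3 CPM in the same order. In cells of neither class it was 453, 519, 80.2 and 77.2 CPM. All 6 young profiles stood above all 6 aged ones, and the aged profiles lay between 66.3 and 81.8 CPM. Here and for the genes below, how often other genes separate in this way was not counted. In 51 cells without a CD3 UMI, pooled over all 4 libraries, Lef1 stood at 88.6 CPM (42.5 to 163). These cells may hold stray RNA and missed T cells. Their level was above every aged profile, so they cannot set the background of aged cells. How far stray RNA enters the aged levels and the ratios was not tested. The aged level was 0.162 times the young one (0.124 to 0.209) in meningeal CD4 cells and 0.130 times (0.0943 to 0.177) in choroid plexus CD4 cells. In CD8 cells these ratios were 0.220 (0.170 to 0.283) and 0.196 (0.155 to 0.246). To compare shares of cells at 1 depth, each cell was thinned to 1000 UMIs. A Lef1 UMI was then found in 34.4% of young meningeal T cells, 35.3% of young choroid plexus T cells, 7.24% of aged meningeal and 6.63% of aged choroid plexus T cells. At full depth the shares were 63.4, 66.4, 14.7 and 16.8%.

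Tcf7 was also lower in aged cells, though by a smaller ratio than Lef1. In CD4 cells its level was 449 CPM (406 to 495) in young meninges, 449 (392 to 512) in young choroid plexus, 173 (148 to 200.4) in aged meninges and 198 (167 to 233) in aged choroid plexus. In CD8 cells it was 346, 227, 105 and 120 CPM, and in cells of neither class 402, 351, 142 and 199 CPM. Young and aged profiles did not overlap, but the lowest young value, 227 CPM in choroid plexus CD8 cells, was near the highest aged one, 199 CPM. The ratio of aged to young was 0.385 (0.320 to 0.461) in meningeal CD4 cells, 0.303 (0.239 to 0.381) in meningeal CD8 cells and 0.441 (0.355 to 0.547) in choroid plexus CD4 cells. In choroid plexus CD8 cells it was 0.528 (0.425 to 0.658) and in choroid plexus cells of neither class 0.569 (0.472 to 0.684). The interval excluded equal levels in all 6 comparisons, yet these last 2 did not reach the size set for a call below. The intervals of the ratio for Lef1 and Tcf7 overlapped in meningeal CD8 cells and were apart in the other 5 comparisons. In thinned cells, the share of T cells with a Tcf7 UMI was 34.0 and 30.7% in young meninges and choroid plexus, and 11.3 and 14.1% in aged ones.

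The balance between these paired factors differed between the ages. Lef1 gave 49.4% (45.9 to 53.0) of the summed Lef1 and Tcf7 UMIs in young meningeal CD4 cells and 29.1% (23.6 to 35.2) in aged ones. In choroid plexus CD4 cells it gave 54.2% (49.7 to 58.7) in young and 25.9% (19.9 to 32.7) in aged cells. In CD8 cells the shares were 51.7 and 43.8% in meninges and 59.9 and 35.6% in choroid plexus, young before aged. The intervals of young and aged cells overlapped in 1 of the 6 pairs, meningeal CD8 cells, where they were 48.1 to 55.3 and 36.2 to 51.6%. This is a comparison of shares and says nothing of which gene has more RNA, since the capture of the 2 transcripts may differ.

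**Figure D1:**
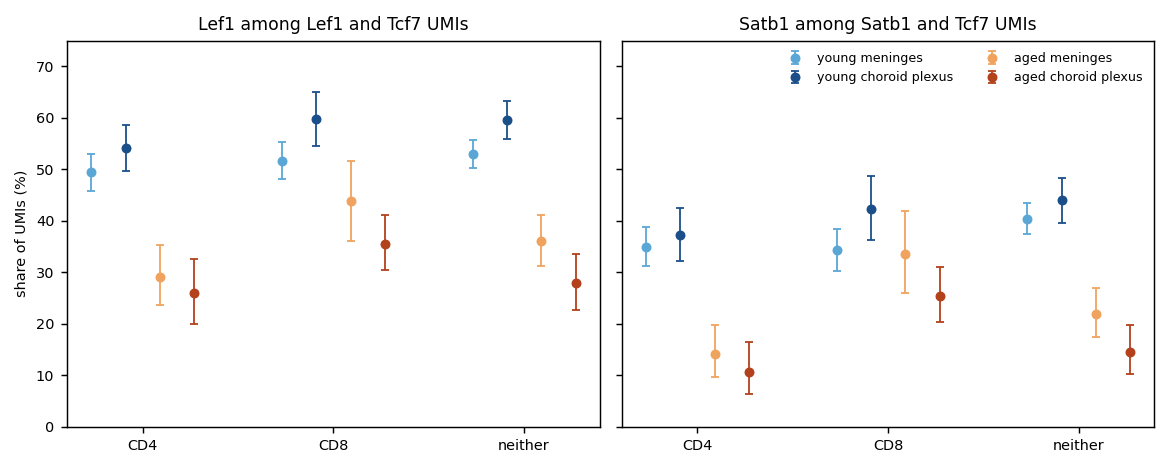
Share of Lef1 among Lef1 and Tcf7 UMIs (left) and of Satb1 among Satb1 and Tcf7 UMIs (right) in percent, by class of T cell on the horizontal axis and library by colour. Bars are 95% binomial intervals. Aged CD4 cells of meninges and choroid plexus show 29.1 and 25.9% for Lef1 and 14.2 and 10.6% for Satb1. The choroid plexus value is the lowest of each panel.

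Satb1 was lower in aged cells in all 3 classes and both tissues, with a highest profile 11.7 times its lowest. Its level in CD4 cells was 241 CPM (210.1 to 276) in young meninges, 266 (222 to 315) in young choroid plexus, 28.6 (19.2 to 41.1) in aged meninges and 23.5 (13.7 to 37.7) in aged choroid plexus. The aged values rest on 29 and 17 UMIs. In CD8 cells the level was 181, 167, 53.0 and 40.9 CPM, and in cells of neither class 273, 275, 39.8 and 34.1 CPM. Again no aged profile reached a young one. In the 51 cells without a CD3 UMI, which may hold stray RNA or missed T cells, Satb1 stood at 26.6 CPM (5.48 to 77.7) from 3 UMIs. The aged CD4 levels were not shown to differ from this reference, and how far stray RNA enters the CD4 ratios was not tested. The aged level was 0.119 times the young one (0.0776 to 0.175) in meningeal CD4 cells and 0.0886 times (0.0501 to 0.147) in choroid plexus CD4 cells. In CD8 cells the ratios were 0.293 (0.209 to 0.405) and 0.245 (0.179 to 0.334), and the intervals, for counting error alone, did not reach those of CD4 cells. Of the summed Satb1 and Tcf7 UMIs in CD4 cells, Satb1 gave 34.97 and 37.2% in young and 14.2 and 10.6% in aged meninges and choroid plexus. In thinned cells Satb1 was found in 23.1 and 21.3% of young T cells of meninges and choroid plexus, and in 3.28 and 3.08% of aged ones.

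Bach2 rested on few UMIs. Its CPM in CD4 cells was 41.7 (29.4 to 57.5), 44.3 (27.8 to 67.0), 24.7 (16.0 to 36.4) and 18.01 (9.59 to 30.8) in young meninges and choroid plexus and then in their aged counterparts, from 13 to 37 UMIs each. In CD8 cells it was 38.8, 41.0, 18.8 and 8.64 CPM, and in cells of neither class 74.4, 45.9, 20.8 and 24.1 CPM. Every young profile was above every aged one. Cells without a CD3 UMI held 44.3 CPM of Bach2 (14.4 to 103) from 5 UMIs, near or above its level in young CD4 and CD8 cells. Neither young nor aged Bach2 levels in these classes were thus set apart from that reference. The interval of the ratio reached equal levels in meningeal CD4 cells, at 0.591 (0.341 to 1.01), and excluded them in the other 5 comparisons. In thinned cells Bach2 was found in 4.79 and 3.43% of young T cells and in 1.34 and 1.83% of aged ones, in meninges and choroid plexus.

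Foxp1 was lower in aged cells throughout, by similar amounts. In CD4 cells its level was 189.6 CPM (162 to 220.5) in young meninges, 276 (232 to 326) in young choroid plexus, 80.0 (63.5 to 99.4) in aged meninges and 77.6 (58.6 to 100.7) in aged choroid plexus. In CD8 cells it was 174, 200.2, 75.1 and 91.0 CPM, and in cells of neither class 228, 221, 76.8 and 69.1 CPM. The 6 aged profiles stood within 69.1 to 91.0 CPM, all below the lowest young value of 174 CPM. Cells without a CD3 UMI, pooled over all 4 libraries, held 124 CPM (67.8 to 208), above every aged profile. They therefore cannot set the background of aged cells, and the part of stray RNA in aged Foxp1 levels was not tested. The ratio of aged to young went from 0.281 (0.202 to 0.387) in choroid plexus CD4 cells to 0.455 (0.358 to 0.579) in choroid plexus CD8 cells.

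Foxo1 was also lower in aged cells in each comparison, with a smaller log2 ratio than Foxp1 in 5 of the 6. Its level in CD4 cells was 132 CPM (109 to 158) in young meninges, 107 (79.9 to 139.5) in young choroid plexus, 39.5 (28.2 to 53.8) in aged meninges and 65.1 (47.8 to 86.6) in aged choroid plexus. In CD8 cells it was 84.2, 69.3, 38.7 and 38.0 CPM, and in cells of neither class 136, 129, 61.2 and 48.1 CPM. The lowest young profile, 69.3 CPM, and the highest aged one, 65.1 CPM, were close. The ratio of aged to young was 0.299 (0.204 to 0.432) in meningeal CD4 cells and 0.610 (0.403 to 0.921) in choroid plexus CD4 cells.

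Id3 was the exception. Its CPM in CD4 cells was 57.5 (42.8 to 75.7) in young meninges, 44.3 (27.8 to 67.0) in young choroid plexus, 46.4 (34.1 to 61.7) in aged meninges and 41.6 (28.0 to 59.3) in aged choroid plexus. In cells of neither class it was 46.5, 52.1, 35.2 and 50.1 CPM. These ranges overlapped between the ages, and the ratio of aged to young was 0.807 (0.531 to 1.22) and 0.938 (0.523 to 1.71) in meningeal and choroid plexus CD4 cells. In CD8 cells Id3 stood at 53.0, 55.2, 23.2 and 30.0 CPM, with ratios of 0.438 (0.252 to 0.735) in meninges and 0.543 (0.347 to 0.859) in choroid plexus. The intervals for CD8 cells excluded equal levels, and those for CD4 cells and cells of neither class did not.

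**Figure D2:**
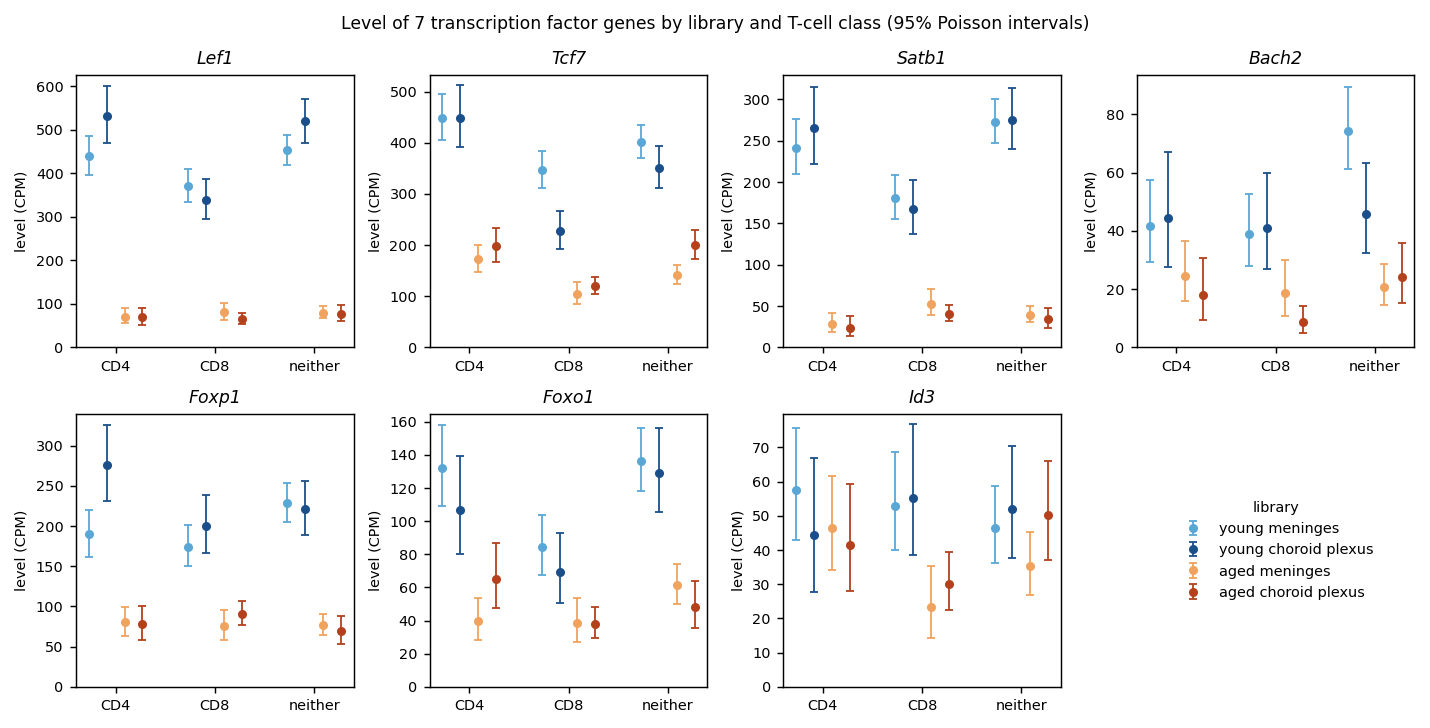
Level of each gene in CPM (vertical axis, starting at 0) by class of T cell (horizontal axis) and library (colour), with 95% Poisson intervals. The 6 young profiles sit above the 6 aged ones for all genes but Id3, whose young profiles span 44.3 to 57.5 CPM and aged profiles 23.2 to 50.1 CPM. How often genes outside the 7 separate in this way was not counted.

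For counting, a gene was called where its higher profile held at least 20 UMIs and its log2 ratio, taken after adding 10 CPM to both levels, was at least 1 in size. In meningeal CD4 cells 5 of the 7 genes were called lower in aged cells, with log2 ratios of −2.70 for Satb1, −2.47 for Lef1, −1.52 for Foxo1, −1.33 for Tcf7 and −1.15 for Foxp1. By the same rule 1.87% of the 5879 genes with enough UMIs were called lower there and 4.25% higher. In meningeal CD8 cells 4 of the 7 were called lower (Lef1, Tcf7, Satb1 and Foxp1), beside 1.84% of all genes lower and 3.22% higher. In meningeal cells of neither class all but Id3 were called lower, beside 1.42% of all genes, with 3.45% higher. In the choroid plexus the called genes were Lef1, Tcf7, Satb1 and Foxp1 in CD4 cells (1.99% of all genes lower, 7.53% higher). They were Lef1, Satb1, Bach2 and Foxp1 in CD8 cells (1.01% lower, 2.84% higher) and Lef1, Satb1, Foxp1 and Foxo1 in cells of neither class (1.84% lower, 4.67% higher). Lef1, Satb1 and Foxp1 were thus called in all 6 comparisons, Tcf7 in 4, Foxo1 in 3, Bach2 in 2 and Id3 in none. Some of these calls rest on the settings. With 2 UMIs asked of Cd4 or Cd8, Foxp1 stood at −0.54 in meningeal CD4 and −0.89 in meningeal CD8 cells, and Tcf7 at −0.72 in choroid plexus CD4 cells, none of them called. In cells thinned to 1000 UMIs Tcf7 stood at −0.85 and, in choroid plexus CD8 cells, Foxp1 at −0.91. None of the 7 was called higher in aged cells. The median log2 ratio of the 7 genes was −1.45 to −1.06 over the 6 comparisons, where that of all genes with enough UMIs was 0.04 to 0.18. Bach2 and Id3 were near the minimum of 20 UMIs in several profiles, and a difference of their size was at the limit of what this depth shows.

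**Figure D3:**
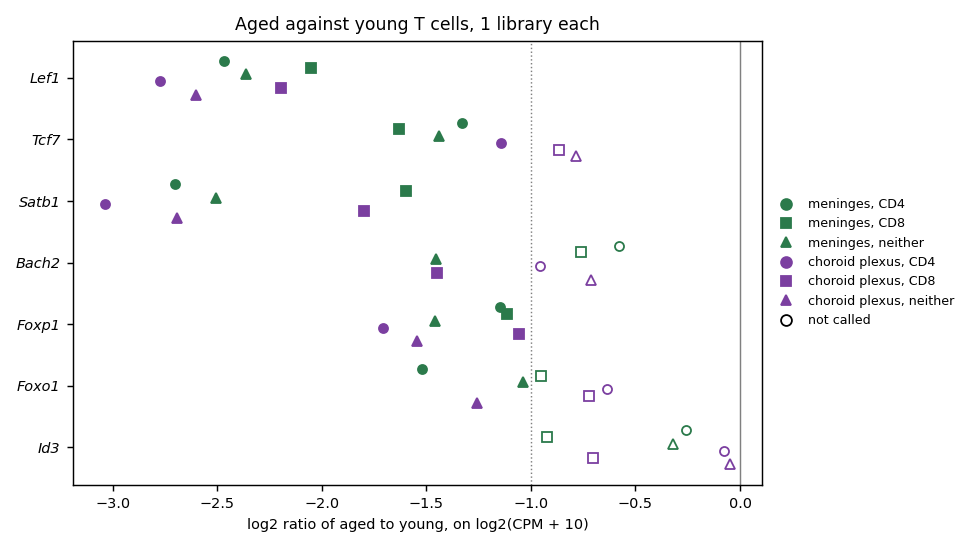
Log2 ratio of aged to young on the log2(CPM + 10) scale (horizontal axis) for each gene (vertical axis), by tissue (colour) and class of T cell (symbol); filled symbols were called and the dotted line marks −1. Satb1 in choroid plexus CD4 cells lies farthest from 0, at −3.04, and Id3 in choroid plexus cells of neither class nearest, at −0.05.

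Young profiles lay above aged ones for all of the 7 genes but Id3. How often genes at large separate in this way was not counted. Ordered by level, neighbouring profiles were seldom apart. Of the 11 steps between neighbours, the intervals were separate at 2 for Satb1, at 1 for Lef1, Tcf7 and Foxp1, and at none for Bach2, Foxo1 and Id3. The highest profile stood 8.02 times above the lowest for Lef1, 4.28 times for Tcf7, 8.60 times for Bach2, 3.99 times for Foxp1, 3.58 times for Foxo1 and 2.48 times for Id3. Added together, the 7 genes gave 1098 to 1717 CPM in young and 395 to 502 CPM in aged profiles.

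Cells marked by genes of other types also differed between the ages. RNA of a list of 5 B cell genes, led by Ighm, was seen in 41.9 to 51.2% of cells in the young profiles and 14.6 to 36.5% in the aged ones, at a summed level of 151 to 264 against 65.2 to 213 CPM. Between 2 and 5 of these genes were detected in a profile, and Ighm had the highest level of them in each of the 12 profiles. Levels of the 7 genes were close in young cells with and without such a UMI, at 433 against 444 CPM for Lef1 and 226 against 247 CPM for Satb1. Without these cells the number of genes called lower was 5, 5 and 6 in meningeal CD4 cells, CD8 cells and cells of neither class and 4, 2 and 4 in those of the choroid plexus. In choroid plexus CD8 cells Foxp1 then had a log2 ratio of −0.92 and was not called, and Bach2, at −1.59, had too few UMIs. Gamma-delta T-cell genes (Trdc, Tcrg-C1, Tcrg-C2, Tcrg-C4, Trdv4) reached 1.25 to 5% of cells in a young profile and 1.38 to 32.8% in an aged one, most in aged choroid plexus CD8 cells. They summed to 6.04 to 23.7 CPM in young and 5.93 to 181 CPM in aged profiles, with 2 to 4 of the 5 genes detected. Natural killer genes (Ncr1, Klrb1c, Klre1, Klra8) reached 0 to 8.12% and 0.435 to 12.1% of cells in young and aged profiles, at 0 to 50.4 and 1.39 to 53.6 CPM, with 0 to 4 and 1 to 4 of the 4 genes detected. Without cells carrying gamma-delta or natural killer genes 5, 4 and 6 genes were called in meningeal classes and 4, 3 and 4 in those of the choroid plexus. Macrophage genes were found in at most 3.15% of cells of a profile and choroid plexus epithelium genes in at most 3.38%. Their summed levels reached 193 CPM in aged choroid plexus CD4 cells and 175 CPM in young choroid plexus CD8 cells. Of the 5 fibroblast and 3 neutrophil genes none was detected in young and at most 1 in aged profiles. Red cell genes reached 8.27% of cells in young and 23.5% in aged profiles. The part of the other cell types in the age differences was tested no further than by leaving out cells so marked. Those recounts stand without the share of all genes called in the same cells, so they do not show whether the called genes stand out. A UMI of such a gene does not by itself show that a cell is of that type.

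The remaining 51 cells without a CD3 UMI, pooled over all 4 libraries, served as a reference for stray RNA, although T cells whose CD3 was missed may be among them. At 1000 UMIs, which 31 of them reached, 3.23% held a Lef1 UMI, 6.45% a Tcf7 UMI, 3.23% a Satb1, Bach2 or Foxo1 UMI, 12.9% a Foxp1 UMI and 9.68% an Id3 UMI. Their median depth was 1236 UMIs. The young T-cell shares of Lef1, Tcf7 and Satb1 were far above these values. By summed level the same cells held 88.6 CPM of Lef1, 124 CPM of Foxp1 and 44.3 CPM of Bach2, above every aged profile of these genes. For these genes they therefore cannot set the background of aged cells. The Bach2 value was also near or above its level in young CD4 and CD8 cells of both tissues. Tcf7, at 62.0 CPM, and Foxo1, at 17.7 CPM, were below every aged profile of theirs. The aged share of Satb1, at 3.28 and 3.08%, was near its reference and is not read as expression above background, and aged shares of Bach2 and Foxp1 were below theirs. For Id3 the cells without CD3 are no reference for stray RNA, since 15 of their 21 Id3 UMIs came from 2 aged choroid plexus cells. With so few cells the reference is imprecise, its interval for Lef1 being 0.0816 to 16.7%.

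Counted per cell, fewer of the 7 genes were found together in aged cells. Thinned T cells held a mean of 1.32 of the 7 in young meninges, 1.26 in young choroid plexus, 0.390 in aged meninges and 0.408 in aged choroid plexus. None of the 7 was found in 25.8% (23.1 to 28.6) and 29.2% (25.5 to 33.0) of young T cells and in 69.5% (66.9 to 71.9) and 66.5% (63.6 to 69.4) of aged ones. At full depth the shares with none were 7.48, 7.64, 46.3 and 37.4%. At least 2 of the 7 were found in 40.5 and 36.5% of young and 7.09 and 6.25% of aged thinned T cells. In young cells Lef1 was found more often where a Tcf7 UMI was also held. In young meninges 43.1% (37.7 to 48.6) of thinned cells with a Tcf7 UMI held a Lef1 UMI, against 29.8% (26.3 to 33.5) of those without. In young choroid plexus these shares were 47.5 and 30.0%, with intervals that did not meet. In aged meninges they were 11.2% (6.65 to 17.3) and 6.73% (5.38 to 8.31), and in aged choroid plexus 7.48% (3.79 to 13.0) and 6.49% (4.97 to 8.32), so no difference was detectable in aged cells at this depth. Foxp1 was found in 19.6% (12.2 to 28.9) of aged meningeal cells with a Lef1 UMI and 6.44% (5.14 to 7.95) of those without, while the intervals overlapped in the other 3 libraries. Satb1 was found in 10.3% (5.06 to 18.1) and 2.74% (1.90 to 3.8) of these cells, and in 29.1% (24.3 to 34.2) and 20.03% (17.0 to 23.3) in young meninges. At full depth, Lef1 was found in 23.0% (18.7 to 27.7) of aged meningeal cells with a Tcf7 UMI and 11.8% (9.88 to 13.9) without. In aged choroid plexus these full-depth shares were 22.0% (17.8 to 26.7) and 14.2% (11.7 to 17.0), so both pairs of intervals were apart. Deeper cells yield more of every gene, and thinning sets the UMIs per cell equal without making the cells alike.

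**Figure D4:**
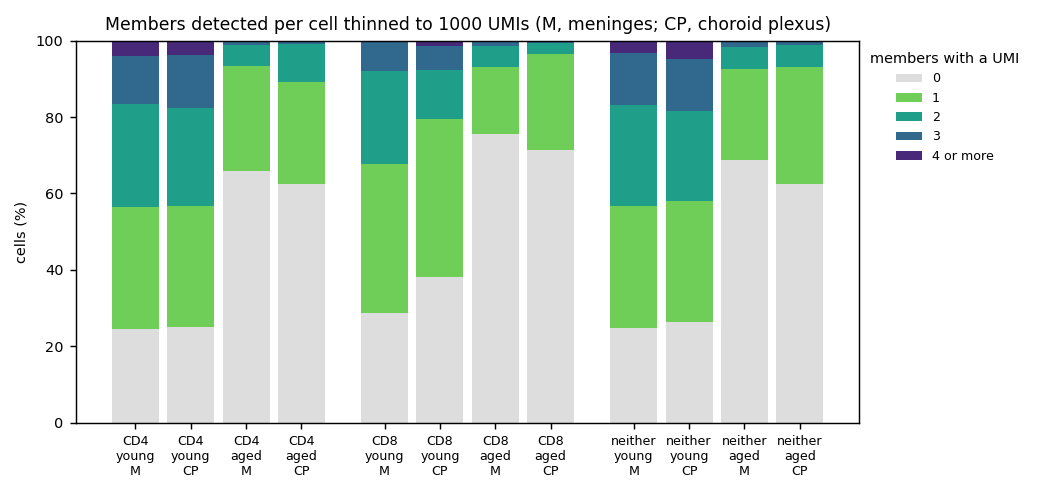
Share of cells in percent (stacked bars, vertical axis) by how many of the 7 genes had a UMI after thinning to 1000 UMIs, for each class and library (M, meninges; CP, choroid plexus). Cells with none of the 7 (grey) make up 24.5 to 38.2% of each young bar and 62.4 to 75.5% of each aged one.

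Ccr7 separates cells that resemble naive cells from the rest, and its share changed with age. A Ccr7 UMI was found in 59.5% of young meningeal T cells (588 cells), 54.2% of young choroid plexus T cells (319), 9.43% of aged meningeal T cells (130) and 9.90% of aged choroid plexus T cells (105). The Ccr7-positive cells of aged mice carried 555 and 394 CPM of Ccr7, where young ones carried 871 and 635 CPM, so the gate did not take equal cells at both ages. A second Ccr7 UMI was present in 68.9 and 54.6% of young and 34.6 and 35.2% of aged positive cells.

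Within Ccr7-positive T cells, Lef1 and Satb1 were lower with age in both tissues, by an amount that depended on the Ccr7 gate. Lef1 was at 551 CPM (519 to 584) in young meninges, 591 (546 to 639) in young choroid plexus, 223 (181 to 272) in aged meninges and 168 (132 to 210.2) in aged choroid plexus. Satb1 was at 299, 299, 123 and 110 CPM in the same order. In aged Ccr7-positive cells both genes stood near or below the level of young Ccr7-negative cells, which was 234 and 310 CPM for Lef1 and 143 and 163 CPM for Satb1. Only these 2 genes were called in the meninges, at log2 ratios of −1.27 and −1.21, where 2.49% of all genes were called lower. In the choroid plexus Lef1 (−1.76), Satb1 (−1.37) and Foxo1 (−1.56) were called, beside 2.31% of all genes. With a gate of 2 Ccr7 UMIs these stood at −1.04, −0.55 and −0.97, so that Satb1 and Foxo1 lost the call, and with the gate set on thinned cells Satb1 stood at −0.87. Foxo1 rests there on 16 aged UMIs, and in the meninges 1 gene was called with a gate of 2 Ccr7 UMIs, Lef1 then being at −0.79, and 4 with the gate set on thinned cells. Tcf7 stood at 480, 414, 276 and 262 CPM in Ccr7-positive cells, with ratios of aged to young of 0.575 (0.472 to 0.696) and 0.631 (0.510 to 0.776). The intervals of Bach2 and Id3 included equal levels in both tissues, at 0.873 (0.546 to 1.34) and 0.669 (0.350 to 1.20) for Bach2.

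Ccr7-negative cells showed the same direction. A Ccr7 UMI can be missed at this depth, since many young positive cells held no second one. Young Ccr7-negative cells may therefore include naive-like cells, and how far these set the difference was not tested. Lef1 was at 234, 310, 58.7 and 55.5 CPM, and Satb1 at 143, 163, 28.9 and 24.3 CPM. In the meninges Satb1 (−1.97), Lef1 (−1.83) and Tcf7 (−1.07) were called lower, beside 0.549% of all genes. In the choroid plexus Satb1 (−2.34), Lef1 (−2.29), Foxp1 (−1.12) and Bach2 (−1.05) were called, beside 0.691% of all genes. Without cells holding a B cell UMI, 2 were called in the choroid plexus, Foxp1 then standing at −0.95 and Bach2, at −1.17, having too few UMIs.

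**Figure D5:**
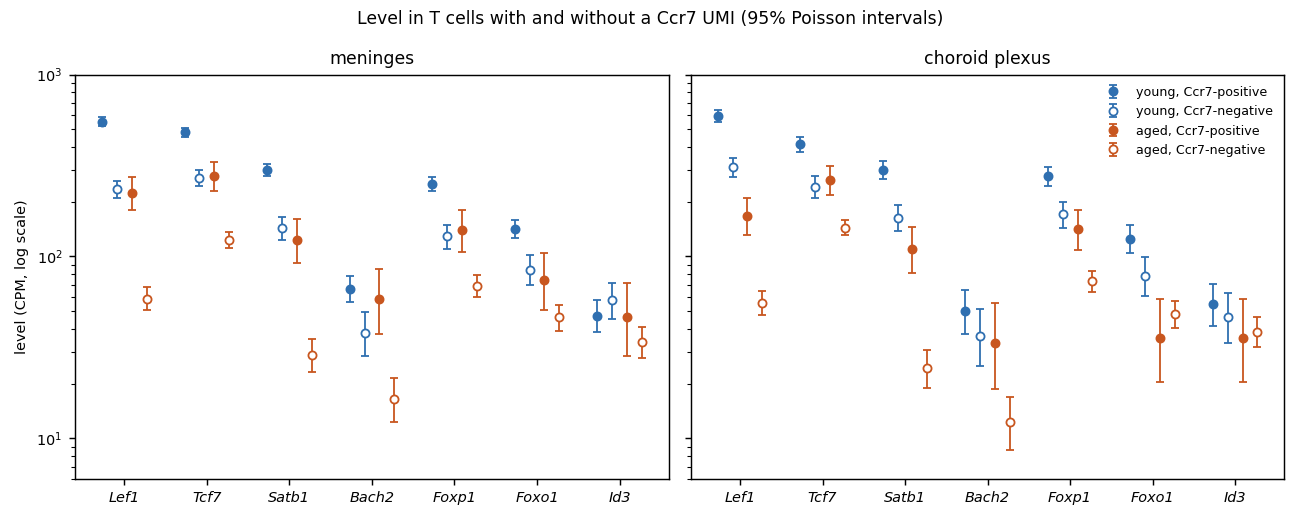
Level of each gene in CPM (log axis) in T cells with a Ccr7 UMI (filled) and without (open), young in blue and aged in orange, for meninges (left) and choroid plexus (right); bars are 95% Poisson intervals. Aged Ccr7-positive cells (223 and 168 CPM of Lef1) stand well below young ones (551 and 591 CPM).

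To see how far the share of Ccr7-positive cells alone would set the difference, the aged levels were weighted to the share of UMIs that came from Ccr7-positive cells in young mice, which was 60.2 against 11.8% for aged mice in meninges and 54.6 against 12.9% in choroid plexus. The log2 ratio of Lef1 over all T cells went from −2.30 to −1.37 in meninges and from −2.56 to −1.90 in choroid plexus. For Satb1 it went from −2.30 to −1.37 and from −2.45 to −1.61. For Tcf7 it went from −1.43 to −0.85 and from −1.03 to −0.66, and for Foxp1 from −1.28 to −0.80 and from −1.37 to −0.99. Bach2 moved from −1.05 to −0.34 and from −1.10 to −0.67. Foxo1 moved from −1.12 to −0.82 in meninges but from −1.01 to −1.14 in choroid plexus. With this gate of 1 Ccr7 UMI, a difference of over 1 remained for Lef1 and Satb1 in both tissues and for Foxo1 in the choroid plexus. Since the gate did not take equal cells at both ages, the weighting cannot separate the share of naive-like cells from the level within them. It was not repeated with a gate of 2 Ccr7 UMIs. The weights rest on 130 and 105 aged Ccr7-positive cells.

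For Satb1 the outcome was unlike in CD4 and CD8 cells. In meningeal Ccr7-positive CD8 cells it was at 220.4 CPM (187 to 258) in young and 245 CPM (164 to 352) in aged mice, from 29 UMIs in 15 of 25 aged cells. In meningeal Ccr7-positive CD4 cells it was at 333 CPM (284 to 387) in young and 38.7 CPM (10.5 to 99.1) in aged mice, from 4 UMIs in 35 aged cells. In the choroid plexus the values were 245 and 118 CPM for CD8 and 315 and 74.4 CPM for CD4 cells, young before aged. Weighted to the young share, the meningeal CD8 log2 ratio of Satb1 went from −1.60 to −0.10 and the CD4 ratio from −2.70 to −2.52. The ratio of aged to young in these meningeal cells was 1.11 (0.720 to 1.66) for CD8 and 0.116 (0.0313 to 0.304) for CD4 cells. The 25 aged CD8 cells were deep, with a median of 4856 UMIs against 2632 in the 35 aged CD4 cells. After thinning, 3 of the 25 and 0 of 34 held a Satb1 UMI, and that count of 0 allows a share of up to 8.82%. These cells were singled out after the values were seen.

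Ccr7-positive cells were also set against Ccr7-negative cells of the same library. In young meninges Lef1 (log2 ratio 1.20) and Satb1 (1.02) were called higher, beside 0.544% of all genes. In young choroid plexus none was called, beside 0.497% of all genes, and Lef1 stood at 0.91. In aged meninges Satb1 (1.77), Lef1 (1.76), Bach2 (1.36) and Tcf7 (1.10) were called, beside 0.477%. In aged choroid plexus Satb1 (1.80) and Lef1 (1.44) were called, beside 0.357%. Id3 did not follow, with ratios of positive to negative of 0.821 (0.605 to 1.12), 1.18 (0.777 to 1.80), 1.37 (0.806 to 2.22) and 0.928 (0.513 to 1.57) in the 4 libraries. The median log2 ratio of all genes was −0.15, −0.11, −0.29 and −0.23 in these comparisons, and scaling by the median of ratios moved it by 0.18 and 0.12 in the young libraries. With that scaling 4 genes were called in young meninges and 1 in young choroid plexus, and the share of called genes that were higher went from 15.2 to 28.4% and from 14.5 to 28.3%. These 2 counts stand without the share of all genes called higher under that scaling.

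CD4 and CD8 cells of one library were compared by the same size for a call. Where few of all genes reach it, an absence of calls says little about 7 genes. None of the 7 genes was called in young meninges (2.84% of all genes called in either direction), young choroid plexus (3.62%), aged meninges (4.54%) or aged choroid plexus (3.92%). Below that size, Tcf7 was lower in CD8 than in CD4 cells in all 4 libraries, at ratios of 0.771 (0.667 to 0.891), 0.506 (0.407 to 0.626), 0.607 (0.468 to 0.784) and 0.605 (0.487 to 0.754), each with an interval that excludes equal levels. Satb1 was lower in CD8 cells of young meninges (0.748, 0.612 to 0.914) and young choroid plexus (0.629, 0.482 to 0.818) and higher in those of aged meninges (1.85, 1.14 to 3.05) and aged choroid plexus (1.74, 1.01 to 3.15). In cells thinned to 1000 UMIs, the aged log2 ratios of Satb1 were −0.03 and −0.17 in place of 0.71 and 0.60. Lef1 was lower in CD8 cells of young meninges (0.845, 0.732 to 0.975) and young choroid plexus (0.638, 0.530 to 0.766), and its interval included equal levels in both aged libraries. Foxo1 was lower in CD8 cells of young meninges (0.638, 0.479 to 0.847) and aged choroid plexus (0.584, 0.396 to 0.868). Id3 was lower in CD8 cells of aged meninges, at 0.4998 (0.284 to 0.853), and the interval included equal levels in the other libraries.

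The 2 tissues differed in none of the 7 genes by the size set for a call, in young CD4 cells (4.11% of all genes called in either direction), young CD8 cells (2.91%), aged CD4 cells (2.34%) or aged CD8 cells (1.5%). With so few of all genes called, this absence of calls says little about the 7. The ratio of choroid plexus to meninges excluded equal levels for Tcf7 in young CD8 cells (0.655, 0.537 to 0.797), for Foxp1 in young CD4 cells (1.45, 1.15 to 1.83), for Lef1 in young CD4 cells (1.21, 1.03 to 1.42), for Foxo1 in aged CD4 cells (1.65, 1.06 to 2.58) and for Bach2 in aged CD8 cells (0.460, 0.214 to 0.980). For Satb1 and Id3 it included equal levels in all 4 of these pairs.

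Cells picked by single marker genes, pooled over both tissues of an age, differed from the rest in some of the 7 genes. Young cells with a UMI of Cxcr3, a receptor of effector and memory cells, had 123 CPM (103 to 146) of Lef1 and 89.4 CPM (72.5 to 109) of Satb1, against 518 and 274 CPM in young cells without. The 939 aged Cxcr3-positive cells had 52.2 CPM of Lef1 and 22.2 CPM of Satb1, against 90.8 and 49.5 CPM. Even among Cxcr3-positive cells, the young levels of Lef1 were thus above the aged ones. Aged cells with a UMI of Gzmk, a granzyme gene of memory-like cytotoxic cells, had 13.1 CPM (8.92 to 18.6) of Satb1 against 49.96 CPM (43.8 to 56.7) without, and 130.4 against 160 CPM of Tcf7. Aged cells with a UMI of Foxp3, the regulatory T-cell factor, had 73.3 CPM (55.1 to 95.6) of Tcf7 against 159 CPM, and 62.4 against 75.5 CPM of Lef1. Foxo1 was instead higher in the 43 young Foxp3-positive cells, at 234 CPM (167 to 318) against 109.7 CPM, and stood at 65.1 against 46.2 CPM in aged ones. Id3 was not lower in these aged strata, at 46.1 against 35.6 CPM with and without Foxp3, 41.5 against 34.4 CPM with and without Gzmk, and 36.5 against 36.9 CPM with and without Cxcr3. Aged cells with a UMI of the division gene Mki67 had 66.4 CPM of Tcf7 and 10.7 CPM of Satb1, against 156 and 39.6 CPM. Each of these strata lies within 2 libraries an age, and their depths differ from the rest.

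Pooled over both tissues, Id3 was higher in aged cells with a UMI of Tnfsf8, which encodes the CD153 ligand. In aged cells Id3 was at 68.8 CPM (55.9 to 83.8) in the 453 Tnfsf8-positive cells and 28.6 CPM (24.4 to 33.4) in the others. Within CD4 cells it was at 68.4 CPM (47.1 to 96.1) in 160 positive cells, from 33 UMIs, against 35.1 CPM (25.5 to 47.2). By library the aged Tnfsf8-positive CD4 level was 85.3 CPM (54.7 to 127) in meninges and 44.8 CPM (20.5 to 85.0) in choroid plexus. All aged CD4 cells together held 46.4 CPM (34.1 to 61.7) in meninges and 41.6 CPM (28.0 to 59.3) in choroid plexus. The higher CD4 level was thus seen in meninges, and not in choroid plexus. Tcf7 was at 190.4 against 139.8 CPM and Satb1 at 36.1 against 38.1 CPM in aged T cells with and without Tnfsf8. In young T cells Id3 was at 73.9 CPM (53.9 to 98.9) with and 48.3 CPM (42.3 to 55.0) without Tnfsf8, where the intervals meet and 10 of the 45 UMIs came from 1 CD4 cell. Id3 was also at 56.4 CPM in aged cells with a B cell gene UMI and 27.9 CPM in those without, and the part of Ighm in this was not tested.

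Cells with gamma-delta genes had less of the pair Lef1 and Tcf7. In aged mice Lef1 was at 39.0 CPM (27.7 to 53.3) in 257 such cells and 79.9 CPM (73.0 to 87.4) in the rest, while Satb1 was at 36.0 and 38.0 CPM. In 110 aged cells with a natural killer gene, Satb1 was at 107 CPM (76.5 to 146) against 33.9 CPM (29.6 to 38.6), and Lef1 at 77.7 against 74.0 CPM. In young mice both genes stood lower in the marked cells. Lef1 was at 157 against 451 CPM and Satb1 at 126 against 242 CPM with and without gamma-delta genes, and they were at 82.2 against 455 CPM and 164 against 240.3 CPM with and without natural killer genes.

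Other genes of the same pathways were read from lists. Of the 20 listed genes of naive and quiescent T cells, 10 of 20 with enough UMIs were called lower in aged meningeal CD4 cells, 9 of 20 in meningeal CD8, 9 of 18 in choroid plexus CD4 and 8 of 20 in choroid plexus CD8 cells, and none higher. Their median log2 ratios were −0.69, −0.83, −1.18 and −0.66. Dapl1 stood at −2.63 and −3.45 in CD4 cells of meninges and choroid plexus, Ccr7 at −2.92 and −2.85, the growth factor binding protein gene Igfbp4 at −2.58 and −3.06 and the actin crosslinker gene Actn1 at −2.55 and −2.99. In CD8 cells the same 4 genes stood between −3.00 and −2.20. Of 18 genes regulated by or regulating FOXO factors, 5, 5, 4 and 5 were called lower, in the same order, and 1 higher in choroid plexus CD4 cells. The called ones included Sesn1, a stress-induced inhibitor of growth signalling, at −1.41 and −2.53 in CD4 cells, and Pik3ip1, an inhibitor of PI3 kinase, at −1.51 and −1.53. Klf2, a factor that keeps up homing receptors, was at −1.16 and −1.67. Il7r, which FOXO1 is known to drive, was at 0.16, −0.38, 0.02 and −0.46 and was not called.

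For the partners of LEF1 and TCF-1 the data were few. Of 16 genes of their family, corepressors and shared factors, 7 or 8 had enough UMIs in each of these 4 comparisons, and none was called lower, where 1.01 to 1.99% of all genes were, so a count of 0 says little about them. One, Gata3, the factor of type 2 helper cells, was called higher in meningeal CD4 cells, at 1.24, outside the naming rule since it was not called in both tissues. Of 5 Id and E protein genes, Id2, the relative of Id3 found in effector cells, was at 0.91, 1.55, 1.18 and 0.83 in meningeal CD4, meningeal CD8, choroid plexus CD4 and choroid plexus CD8 cells, called in meningeal CD8 and choroid plexus CD4 cells. It was likewise named after its values were seen. Of 12 paralogs of the 7 genes, 2 or 3 had enough UMIs, and Foxp3 was called higher in CD4 cells of both tissues, at 1.52 and 1.22. None was called lower. Of 10 factors of effector cells, 4 of 8, 6 of 10, 6 of 7 and 3 of 9 with enough UMIs were called higher, in the same order of comparisons, and none lower. Maf stood at 2.17 and 2.32 in CD4 and 2.26 and 1.81 in CD8 cells. Bhlhe40 stood at 2.15 and 2.53 in CD4 and 1.30 and 1.05 in CD8 cells. Hif1a was at 1.02 and 1.68 in CD4 cells, and Tbx21, the T-bet gene, at 1.01 and 1.02 in CD8 cells. These lists share genes with each other, Ccr7 and Id2 among them.

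Likeness was measured as Pearson's r of log2(CPM + 10) over the 12 profiles, among 2381 genes with a mean of at least 50 CPM, and the profiles share 4 libraries and their depths. The nearest genes to Lef1 were Actn1 (0.99), Satb1 (0.99) and Pik3ip1 (0.98), and to Satb1 they were Lef1 (0.99) and Actn1 (0.98). Foxp1 was nearest to Actn1 (0.99), Lef1 (0.98) and Sesn1 (0.97). Tcf7 was nearest to Dgka (0.98), Igfbp4 (0.97) and Arhgap15 (0.96), none of them among the 7, and its r with Lef1 was 0.90. Foxo1 was nearest to Atp1b3 (0.97), Crlf3 (0.95) and Prkcq (0.94), and Bach2 to Rflnb (0.94), Crlf3 (0.94) and Ripor2 (0.93). Id3 was nearest to Pag1 (0.88), Selenot (0.87) and Arpc5l (0.86), and its r with the other 6 was 0.52 to 0.77. With 6 young and 6 aged profiles far apart for most of these genes, such values mainly describe the difference between the ages.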

How the data were processed

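The authors deposited 10x matrices of UMI counts per gene and barcode. Their headers name Cell Ranger 3.1.0, while the submitters' processing notes list Cell Ranger 5.1.0, STAR and mm10. No cells were annotated. Here cells with 200 to 7000 genes and at most 5% mitochondrial UMIs were kept, doublets called by Scrublet (scanpy 1.11.5) were removed (16 and 22 in young meninges and choroid plexus, 0 and 5 in aged), and T cells needed 1 CD3 UMI. Of 1035, 631, 1436 and 1106 cells that passed, Scrublet thus marked few, so doublets may remain. UMIs were summed per library and class and scaled to CPM, with exact Poisson and, for shares, Clopper-Pearson intervals, and ratios had exact conditional intervals. Cells were thinned to 1000 UMIs for shares. A call needed 20 UMIs in the higher profile and a log2 ratio, after adding 10 CPM, of at least 1 in size. With 1 library of pooled mice per condition no test was run. Of each gene list, up to 4 genes called the same way in both tissues were named, ranked by mean size, and the 3 genes most like each member. The 7 genes and the lists were chosen with earlier results of these data known, so neither the counts of the 7 nor the lists give independent support. The rule for calls was tested on simulated data. Alternatives were other gates, scalings, pseudocounts, thresholds, depths and cell filters. Gene positions come from GENCODE vM21 (30934 of 31053 identifiers matched) and promoters from RefSeq. Some genes are not reported here. Python 3.11.15, numpy 2.4.6, pandas 2.3.3, scipy 1.17.1 and matplotlib 3.10.9 were used.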

Additional observations from a re-analysis of the deposited data

Results flagged for a closer look

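Satb1 was lower in CD8 than in CD4 cells of both young libraries and higher in both aged ones. The log2 ratio of CD8 to CD4 was −0.40 in young meninges, 0.71 in aged meninges, −0.64 in young choroid plexus and 0.60 in aged choroid plexus. These are 4 libraries, and the difference between the ages was not tested. In thinned cells the aged values were −0.03 and −0.17, with every cell weighted equally they were 0.38 and 0.33, and without cells carrying gamma-delta or natural killer genes they were 0.86 and 0.53.

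Id3 stood out in cells that entered no comparison. In 7 aged choroid plexus cells without a CD3 UMI it was at 1910 CPM, from 15 UMIs in 2 cells. In 33 aged choroid plexus cells with both Cd4 and Cd8 UMIs it was at 126 CPM (81.8 to 186), from 25 UMIs in 10 cells.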

How the results depend on the processing

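Over 380 recounts of called genes under the alternatives, 330 stayed within 1.5 times the reported count. Over 2114 recomputed log2 ratios, 2013 stayed inside the counting interval or moved little from the reported value. That interval belongs to the ratio of levels before 10 CPM is added. No called ratio changed sign. The counts that moved were as follows. These counts, and those given under alternatives above, stand without the share of all genes called under the same setting. They show how the counts move and not whether they stand out from all genes. With a pseudocount of 1 CPM, 7 genes were called lower in aged meningeal CD8 cells. At a threshold of log2 0.58, 7 were called lower in meningeal CD8, meningeal Ccr7-negative and choroid plexus CD8 cells and 5 in Ccr7-positive cells of each tissue. At that threshold 6, 5 and 4 were higher in Ccr7-positive cells of young meninges, young choroid plexus and aged choroid plexus. CD4 and CD8 cells then differed in 1 gene in young meninges and 3 in each other library, and the tissues in 1 gene in young CD8 and 1 in aged CD4 cells. With all barcodes, 1 was lower in meningeal Ccr7-positive cells and 1 higher in Ccr7-positive cells of young meninges. With 2 UMIs asked of Cd4 or Cd8 these were 1 and 1, with 2 in young choroid plexus, 1 between CD4 and CD8 cells of aged choroid plexus and 1 between tissues in young CD4 cells. With the Ccr7 gate set after thinning, 4 were lower in meningeal Ccr7-positive cells, and 0, 2 and 4 higher in Ccr7-positive cells of young meninges, aged meninges and aged choroid plexus. With a gate of 2 Ccr7 UMIs, 1 and 5 were lower in meningeal Ccr7-positive and Ccr7-negative cells, and 0 and 4 higher in Ccr7-positive cells of young meninges and aged choroid plexus. With every cell weighted equally, 5 were lower in meningeal Ccr7-negative cells, 1 was higher in Ccr7-positive cells of young meninges and 1 differed between CD4 and CD8 cells of young choroid plexus. Without cells holding B cell UMIs, 2 were lower in choroid plexus CD8 and 2 in Ccr7-negative cells, 1 was higher in Ccr7-positive cells of each young library, 1 differed between CD4 and CD8 cells of each young library and 1 between tissues in young CD8 cells. In cells thinned to 1000 UMIs, 1, 1 and 0 were higher in Ccr7-positive cells of young meninges, young choroid plexus and aged choroid plexus, 1 differed between CD4 and CD8 cells of each aged library and 1 between tissues in young CD4 cells. With median-of-ratios scaling 4 and 1, and with a total without receptor, mitochondrial and ribosomal genes 4 and 2, were higher in Ccr7-positive cells of young meninges and young choroid plexus. The cause was not tested for any of these. Median-of-ratios scaling also took the share of calls that were higher from 55.2 to 40.4% in aged against young choroid plexus Ccr7-positive cells, and from 37.2 to 51.4% and 40.3 to 50.4% in CD8 against CD4 cells of young meninges and aged choroid plexus. Bach2 and Id3 are limited by depth. No paired analysis was possible because each condition had 1 library and no result comes from a test.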
